A study of Mus musculus with 19 samples.

Results

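The signals of 199 immunoglobulin variable (V) segments were examined in the infrarenal aorta of C57BL/6J mice 7 days after infusion of elastase or saline. These were all genes whose symbol began with Ighv, Igkv or Iglv and a digit, among 30142 genes read by probe sets with exactly 1 symbol, with the brightest probe set kept per gene. They comprised 113 heavy chain and 86 kappa V segments. No lambda V segment qualified, since the 3 that RefSeq lists share 1 probe set with 9 symbols. All 199 were found in RefSeq for GRCm38.p6, where the heavy chain V segments span chr12:113572929-116009954 and the kappa V segments span chr6:67555636-70704177. RefSeq lists 183 heavy chain and 162 kappa V segments there. Of those measured here, 110 heavy chain and 79 kappa segments are annotated as functional, and 3 and 7 as pseudogenes.

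The groups were 4 female PPE aortae, 3 female sham aortae, 7 male PPE aortae and 5 male sham aortae, with 1 mouse per array. PPE stands for porcine pancreatic elastase, which digests elastin, given at 2.5 U/mL in saline through a catheter at a pressure of 120 mmHg for 5 min. Sham aortae received saline in the same way, and all mice were 10 weeks old at surgery. The labels name no engineered allele. The aorta below the left renal artery was freed of fat under a microscope, and 100 ng of its RNA were hybridised to an Affymetrix Clariom D array, so every value is a log2 intensity of whole tissue.

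Each B lymphocyte joins 1 heavy chain V segment to a diversity and a joining segment, and 1 light chain V segment to a joining segment, and transcribes the joined gene far more strongly than unjoined segments. The V segment thus marks the antibody that a B cell or plasma cell makes. A clone that expands carries the same pair of V segments in all its cells, and plasma cells, which secrete antibody, hold very large amounts of the transcript. V segments are grouped by sequence into families, such as Ighv1, the largest heavy chain family of this strain. Members of a family can be near-identical, so that RNA of 1 segment can bind probes of its relatives. Counts of V segments below are therefore counts of separate symbols, not of independent signals. Ighv1-62-2 and Ighv1-71 had identical values on all 19 arrays and are counted as 2.

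The median of an array ran from 6.17 to 6.31 in females and from 5.61 to 5.85 in males, and sex and any batch cannot be told apart. Levels of PPE and sham aortae were therefore compared only within a cohort. Smooth muscle genes, which define the tissue of the label, averaged between 10.79 and 13.62 in every array. The adipocyte markers averaged 11.80 in male sham 4 and 7.92 to 9.15 in the remaining male sham aortae, and with male sham 5 and male PPE 1 it was known from earlier work on these data to stand apart. The value table has no detection calls. The 1561 sensory receptor genes were taken to stand for unexpressed genes, and the 95th percentile of their means was 6.19. Single ones were bright, such as Olfr1055 at 11.62 in female PPE 1.

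Background differed between the cohorts. The 95th percentile of the sensory receptor genes within an array ran from 6.60 to 6.82 in female PPE, from 6.53 to 6.86 in female sham, from 5.77 to 6.13 in male PPE and from 5.92 to 6.52 in male sham aortae. The median heavy chain V segment exceeded the percentile of its own array in all 4 female PPE aortae and in 1 of 3 female sham aortae, and in 2 of 7 male PPE and 1 of 5 male sham aortae. The median kappa V segment did so in 3 of 4 female PPE aortae and in no other aorta. In female PPE 1 the margin was minimal, with 6.765 against a percentile of 6.76. In the 4 female PPE aortae 101 of the 199 V segments (50.8%) exceeded the background percentile of every array of the group, against 61 (30.7%) in the 3 female sham aortae. In males the counts were 52 (26.1%) in the 7 PPE aortae and 32 (16.1%) in the 5 sham aortae. Over all genes these shares lay between 45.7% and 49.8% in the 4 groups. Taking the mean over the 19 arrays, 64 heavy chain and 36 kappa V segments stood above the background level of 6.19. That level is taken over both cohorts and lies below the percentile of every female array, so it is only a rough guide.

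The median heavy chain V segment had a level of 7.06, 8.75, 8.01 and 7.15 in the female PPE aortae, against 6.43, 6.44 and 6.90 in the female sham aortae. All 4 PPE aortae lay above all 3 sham aortae, and female PPE 2 was the highest. In males the median heavy chain V segment lay between 5.71 and 6.22 in the PPE aortae, with a median of 5.84, against 6.16, 5.74, 5.11, 6.31 and 5.60 in the sham aortae. The male PPE range lay within the sham range, with the lowest and the highest array both among the sham aortae. The highest, male sham 4, lay below the background percentile of its own array, which was 6.44. That percentile was 6.52 in male sham 5, against 5.77 to 6.13 in the male PPE aortae. These male levels were not corrected for background. The median kappa V segment averaged 7.03 ± 0.47 in female PPE aortae and 6.10 ± 0.22 in female sham aortae (SD, n = 4 and 3). In males it averaged 5.46 ± 0.13 in PPE aortae and 5.35 ± 0.26 in sham aortae (SD, n = 7 and 5). In such whole-tissue RNA, fewer cells of a type and less RNA per cell cannot be told apart.

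**Figure D1:**
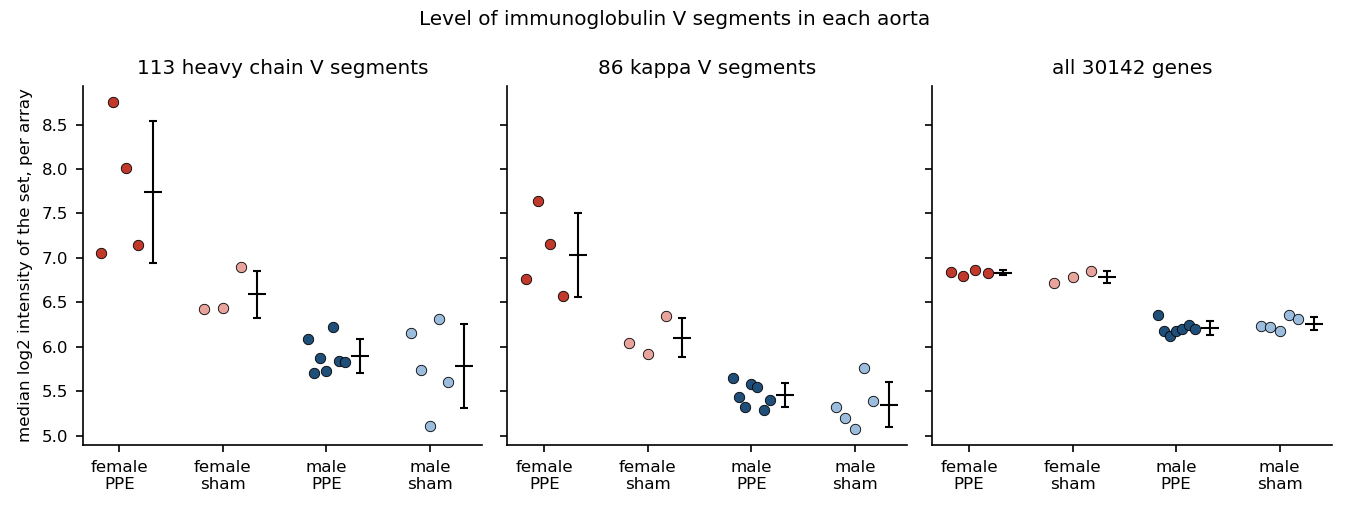
Median log2 intensity of the 113 heavy chain V segments, the 86 kappa V segments and all 30142 genes, with 1 point per aorta and bars for the mean and SD of each group. Female PPE aortae lie above female sham aortae for both chains, while male PPE and sham aortae overlap and the median of all genes differs mainly between the sexes.

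In females 24 of the 199 V segments (12.1%) rose after PPE in limma with a Benjamini-Hochberg adjusted p below 0.05 over all genes, where 2.77% of all genes rose. None fell, where 1.45% of all genes fell, and none had a lower value at an unadjusted p below 0.05. The median log2 difference, PPE minus sham, was 0.89 for heavy chain and 0.67 for kappa V segments, against -0.02 for all genes. It was positive for 181 of the 199. At an unadjusted p below 0.05 there were 95 V segments (47.7%), all higher in PPE, against 14.7% of all genes in either direction. All 4 PPE aortae exceeded all 3 sham aortae for 34 heavy chain and 32 kappa V segments, where 11.0% of all genes did so, and no V segment showed the opposite, where 8.86% of all genes did.

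The calls fell mostly in the Ighv1 family, which holds 61 of the 113 heavy chain V segments. The median female difference was larger in Igkv4 (2.06) and Ighv14 (1.98) than in Ighv1 (1.52). Their median SD pooled within the 4 groups was larger too, at 1.107 and 1.417 against 0.685. Of the 20 heavy chain V segments called, 19 belonged to Ighv1 and the other was Ighv6-6. The 4 kappa V segments called were Igkv4-56, Igkv4-51, Igkv17-121 and Igkv5-43. Rises of the 24 ran from 1.95-fold to 10.1-fold. Of them 16 had a mean above the background level, against 100 of the 199 and 53.7% of all genes. For 21 the groups did not overlap with PPE higher, against 66 of the 199 and 11.0% of all genes. The 24 were called on the same arrays, so the lack of overlap is no separate support. Female PPE 2 was the highest female array for 21 of the 24, against 134 of the 199 and 10.9% of all genes.

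Ighv1-55 (chr12:115208137-115208527) had the largest rise, with 8.76, 11.43, 12.23 and 9.94 in the female PPE aortae, against 6.30, 6.26 and 9.18 in the female sham aortae. Female sham 3 lay above female PPE 1, so the groups overlapped. The mean was 10.59 ± 1.55 in PPE and 7.25 ± 1.67 in sham aortae (SD, n = 4 and 3), a log2 difference of 3.34 ± 0.86 (SE, 10.1-fold, limma adjusted p = 0.0343). Ighv1-83 (chr12:115963817-115964109), the V segment with the lowest p in females, had 8.21, 11.09, 9.16 and 8.56 in PPE aortae, against 6.78, 6.31 and 7.40 in sham aortae. Every PPE aorta exceeded every sham aorta for it, and the rise was 5.37-fold (limma adjusted p = 0.0117). Ighv1-64 had 7.39, 9.80, 9.83 and 7.68 in PPE aortae, against 5.14, 5.09 and 7.05 in sham aortae, a 7.54-fold rise (limma adjusted p = 0.0149). PPE 2 and PPE 3 were about equal there and well above PPE 1 and PPE 4.

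Of the remaining heavy chain V segments called, Ighv1-69 rose 7.49-fold, Ighv1-18 5.19-fold, Ighv1-26 4.57-fold and Ighv1-34 4.56-fold. Ighv1-73, second to Ighv1-83 by p, rose 4.03-fold, and in none of these 5 did the female groups overlap. Their limma adjusted p-values ran from 0.0127 for Ighv1-73 to 0.0308 for Ighv1-26. In males the same 5 V segments differed by between 0.01 and 0.64 on the log2 scale and none was called.

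Among kappa V segments, Igkv5-43 (chr6:69823355-69823911) had 6.91, 9.30, 9.18 and 7.32 in the female PPE aortae, against 5.32, 5.38 and 6.31 in the female sham aortae. Its groups did not overlap, and its rise was 5.69-fold (limma adjusted p = 0.0476). Igkv5-43 kept this call in 13 of 28 alternatives. The call was lost, for example, with median centring (adjusted p = 0.0541), with female arrays alone (0.0617) and without male sham 1 (0.0520). Igkv4-56 had 7.76, 8.86, 8.09 and 7.71 in PPE aortae, against 6.75, 6.89 and 7.40 in sham aortae (log2 difference 1.09 ± 0.27, SE, adjusted p = 0.0281). Igkv4-51 rose by 1.20 ± 0.30 (SE, adjusted p = 0.0322), with a mean over all arrays below the background level. Some larger kappa differences came with a wide spread and missed the threshold: Igkv4-59 differed by 3.25 ± 1.51 (SE, adjusted p = 0.321), with 8.97, 12.83, 10.14 and 8.40 in PPE aortae, against 7.73, 5.67 and 7.10 in sham aortae.

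The female count changed when single arrays were left out. It was 0 without female sham 1, 1 without female sham 2, 14 without female sham 3, 5 without female PPE 2, 4 without female PPE 3 and 42 without female PPE 4, and it was 5 when the variance was taken from female arrays alone. The share of all genes called in these repeats was not counted. Whether the changes were particular to V segments can therefore not be told. Without female sham 2, calls also went from 6 to 0 for smooth muscle, 7 to 4 for T cell and 4 to 3 for neutrophil genes. The median difference of the V segments was less affected. Without female PPE 2 it was 0.57 for heavy chain and 0.56 for kappa V segments, and it stayed positive in every such repeat.

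In males few V segments were called. Of the 199, 1 rose (0.503%) and 1 fell (0.503%), where 9.67% of all genes rose and 9.98% fell. The median log2 difference was 0.11 for heavy chain and 0.10 for kappa V segments, against 0.01 for all genes. No heavy chain V segment was called, and 4 of them had an unadjusted p below 0.05. Over both chains 7 V segments (3.52%) had such a p, against 29.4% of all genes. No V segment had all 7 PPE aortae above all 5 sham aortae, where 4.69% of all genes did, and 1 had them all below, where 4.68% did. The count of 2 was 1 without male sham 2 and 4 without male sham 4 or male PPE 4.

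Igkv12-89 (chr6:68834846-68835307) was the V segment that rose in males. Its level in PPE aortae ran from 5.66 over a median of 6.38 to 7.19, against 4.52, 4.56, 5.84, 5.19 and 5.36 in the sham aortae. The groups touched only at male sham 3, which lay above the lowest PPE aorta. The log2 difference was 1.29 ± 0.39 (SE, 2.44-fold, limma adjusted p = 0.0247), and the adjusted p was 0.0740 without male sham 1, 0.0673 without male sham 2 and 0.0817 without the 3 arrays known to stand apart. In females it differed by 0.98 ± 0.51 (SE, adjusted p = 0.404). Igkv2-95-2, a pseudogene, was the V segment that fell, by 0.39 ± 0.10 on the log2 scale (SE, adjusted p = 0.0064), with 3.69 to 4.03 in PPE aortae against 4.08 to 4.34 in sham aortae. All those values lie below the background level. The heavy chain V segments with the lowest p in males were Ighv10-3, with a log2 difference of 1.10 (adjusted p = 0.112), and Ighv1-54, with 0.55 (adjusted p = 0.123).

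The difference between the responses, male minus female, was called for none of the 199 V segments, where 0.541% of all genes were called. The count was 1 without male sham 2 or male sham 3. Its median was -0.74 for heavy chain and -0.57 for kappa V segments, and 46 V segments (23.1%) had an unadjusted p below 0.05, against 9.95% of all genes. Ighv1-31 came closest, with a difference of -2.49 and a limma adjusted p of 0.0784. Among the 24 V segments called in females, 23 had an unadjusted p below 0.05 for the difference. The female difference by which those 24 were chosen is part of this contrast, so that count adds no support. The responses of the cohorts were thus not shown to differ at the threshold used.

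**Figure D2:**
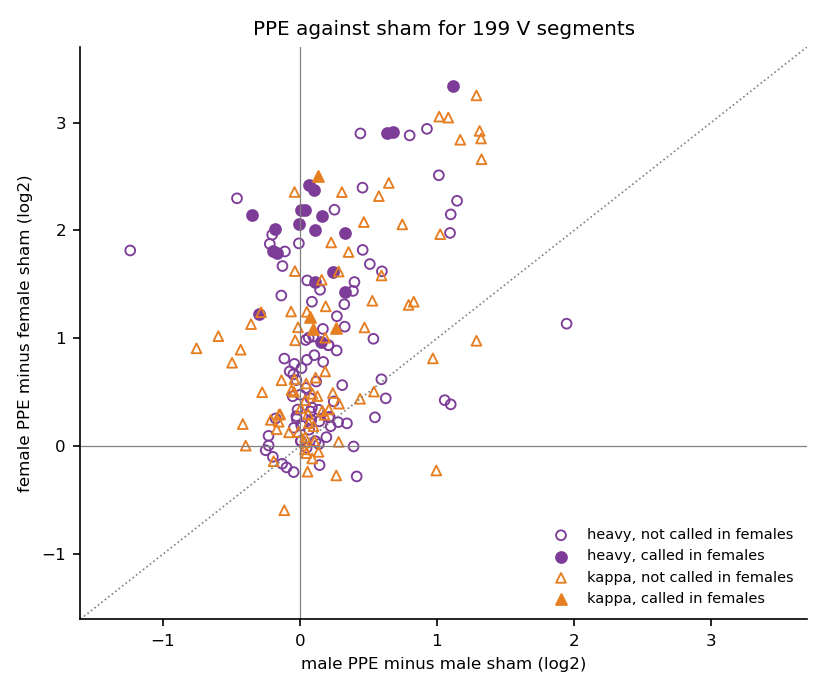
Log2 difference PPE minus sham of each of the 199 V segments, males on the horizontal and females on the vertical axis, with filled symbols for the 24 called in females and a dotted line of equality. Most symbols lie above the line, with male values near 0 and female values up to 3.34.

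By family, the female difference was broad in Ighv1 and in kappa families Igkv4, Igkv3 and Igkv5, and small in several others. All 61 Ighv1 segments had a positive difference in females, with a median of 1.52 and a range of 0.19 to 3.34, against a male median of 0.11. The 4 Ighv14 segments had a median of 1.98 with none called. In contrast, the 8 Ighv2 segments had a median of 0.20 and the 9 Ighv5 segments a median of 0.21 in females, again with none called. Among kappa families, 24 of 25 Igkv4 segments had a positive female difference, with a median of 2.06 and 2 called. The male median of Igkv4 was 0.60 with none called. In male PPE 4, 16 of the 25 lay at least 2 log2 units above the median of the other male PPE aortae. In female PPE 2, 11 of them lay so far above that of the other female PPE aortae. Igkv3 and Igkv5, with 5 segments each, both had a female median of 1.25. The 5 Igkv2 segments had a male median of -0.40, and none of them had a positive male difference.

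The V segments of each chain were also split by their order on the chromosome into 3 blocks of about equal number. In the heavy chain block nearest the joining segments, the 38 V segments had a female median difference of 0.24 with none called, and their male median was 0.14. The middle block had a female median of 1.22 with 12 called, and the block farthest from the joining segments had 1.43 with 8 called. Of all genes 2.77% rose in females. The blocks were not matched for family, and 19 of these 20 calls were Ighv1 segments. Whether position mattered apart from family was not tested for either chain. For kappa the middle block, with 29 V segments, had the highest female median at 1.62. By functional status, the 3 heavy chain pseudogenes had a female median of 1.40, against 0.87 for the 110 functional ones. For kappa the order was the other way round, with 0.21 for the 7 pseudogenes and 0.81 for the 79 functional segments.

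The brightest V segment signal was that of Ighv1-2 (chr12:114469075-114469371), which RefSeq annotates as a pseudogene. It had 14.07, 16.61, 15.65 and 13.93 in the female PPE aortae, against 11.83, 12.31 and 13.52 in the female sham aortae. The groups did not overlap, yet with a log2 difference of 2.51 ± 0.77 (SE) it missed the threshold (limma adjusted p = 0.0825). In males it ran from 11.52 over a median of 12.20 to 14.20 in PPE aortae, against 12.52, 10.42, 10.54, 13.08 and 10.29 in sham aortae, which overlapped. Whether its probes read transcripts of other Ighv1 segments was not tested.

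The next brightest heavy chain V segments, Ighv2-3 and Ighv2-5, showed little difference in females. Ighv2-3 had 10.13, 10.53, 10.57 and 10.29 in PPE aortae, against 9.59, 10.56 and 10.17 in sham aortae (log2 difference 0.27, adjusted p = 0.763). Ighv2-5 differed by -0.10 (adjusted p = 0.962). Ighv1-5 averaged 10.96 ± 1.07 in female PPE aortae and 9.44 ± 0.66 in female sham aortae (SD, n = 4 and 3), and missed the threshold (log2 difference 1.52 ± 0.44, SE, adjusted p = 0.0573). Signals of different probe sets depend on their probes, so this order ranks probe sets and not amounts of RNA.

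V segments also varied widely between mice of 1 group. The SD pooled within the 4 groups had a median of 0.57 for heavy chain and 0.54 for kappa V segments, against 0.19 for all genes. It exceeded 1 for 36 of the 199 V segments (18.1%), against 0.464% of all genes. Compared with genes of like level, 132 V segments (66.3%) had an SD above the 95th percentile. T cell receptor V segments, which are also joined clone by clone but in T cells, had a median SD of 0.25, and 6 of 114 (5.26%) exceeded that percentile. By group, the median SD of the V segments was 0.68 in female PPE, 0.34 in female sham, 0.41 in male PPE and 0.44 in male sham aortae.

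**Figure D3:**
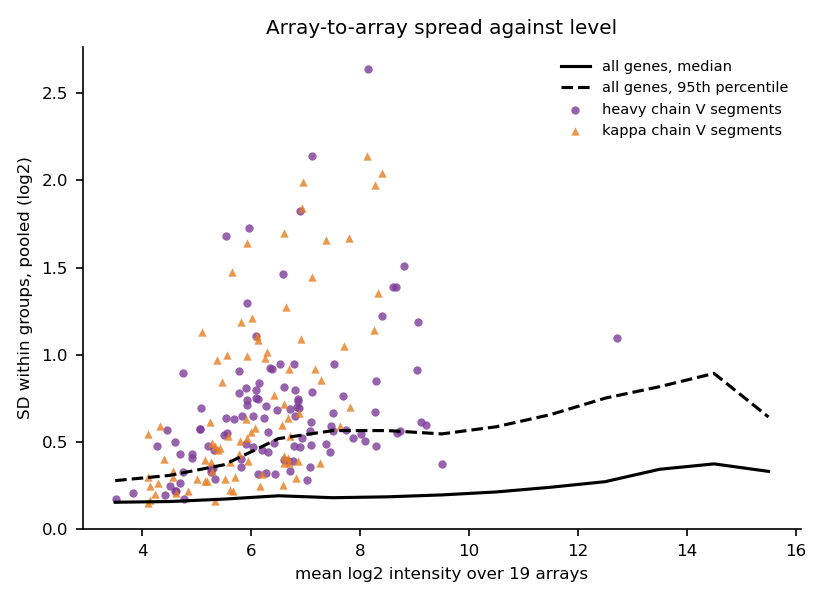
SD within groups, pooled over the 4 groups, against the mean log2 intensity over 19 arrays, with 1 symbol per V segment. The lines give the median and the 95th percentile over all genes of like level, and 132 of the 199 V segments lie above the upper line.

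In single aortae a few V segments were far above the rest of their group. A value at least 2 log2 units above the median of the other arrays of its group, a limit chosen after the values were seen, occurred for 77 V segments (38.7%), against 1.76% of all genes. There were 114 such values over 11 arrays. Female PPE 2 held 52 of them, male PPE 4 17, male PPE 3 10, female sham 3 8, male sham 4 7 and female PPE 3 6. Without female PPE 2 the number of V segments was 48. At a limit of 4 log2 units there were 54 genes in all, and 24 of these (44.4%) were V segments.

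In each of these 6 aortae V segments of both chains were high. In male PPE 4 the heavy chain V segment Ighv3-6 (chr12:114288152-114288447) reached 15.28, against 5.97 to 7.09 in the other 6 male PPE aortae and 5.11 to 6.21 in the male sham aortae. In the same aorta 16 of the 25 Igkv4 segments were at least 2 log2 units above the median of the other male PPE aortae, and 15 were so above each of them, led by Igkv4-59 at 14.81, Igkv4-71 at 14.72 and Igkv4-54 at 14.68. No other heavy chain V segment of that aorta passed the limit. The log2 difference of Ighv3-6 in males was 1.95 ± 1.15 (SE, adjusted p = 0.291), with the other 6 PPE aortae overlapping the sham aortae.

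In male PPE 3 the high heavy chain V segments included Ighv14-1 (chr12:113931953-113932246) at 12.81, against 5.55 to 6.32 in the other male PPE aortae, and Ighv14-4 at 10.67. The high kappa V segments were Igkv15-103 at 11.82, Igkv4-53 at 10.86, Igkv4-60 at 9.77 and 1 more of the Igkv1 family. Ighv1-53 reached 11.78 there. Apart from Ighv14-1 and Igkv15-103, these were named after their values were seen.

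High signals were not limited to PPE aortae. Ighv1-11 (chr12:114612244-114612536) had 12.16, 8.84, 15.93 and 8.65 in the female PPE aortae, against 6.66, 6.32 and 16.34 in the female sham aortae. Female sham 3 was the highest female aorta, just above female PPE 3. Igkv8-16 (chr6:70386672-70387238) followed it with 9.57, 6.89, 13.15 and 7.12 in PPE aortae, against 6.70, 6.43 and 13.53 in sham aortae. The same 3 aortae, PPE 1, PPE 3 and sham 3, ranked highest for both segments and also for Igkv8-23-1, with 7.85, 11.21 and 11.57. In males Ighv1-11 lay between 6.05 and 8.28 in PPE aortae, against 5.65 to 7.29 in sham aortae. The female differences of 1.62 ± 1.86 for Ighv1-11 and 0.30 ± 1.40 for Igkv8-16 (SE) were smaller than their errors.

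Male sham 4 showed Ighv9-3 at 11.38, against 4.06 to 4.90 in the other male sham aortae and 3.91 to 4.96 in the male PPE aortae, with Igkv5-48 at 8.98. In female PPE 2 the largest excesses were those of Ighv8-5 at 11.66, Igkv3-4 at 10.55 and Ighv1-82 at 12.27. That aorta differed from the others in breadth, with 28 Ighv1, 11 Igkv4 and all 5 Igkv3 segments at least 2 log2 units above the median of the other female PPE aortae. Of these, 7 Ighv1, 10 Igkv4 and 4 Igkv3 segments were at least 2 log2 units above each of them. It was the highest female array for 134 of the 199 V segments (67.3%), against 10.9% of all genes. In males, where there are more arrays, none led more than 40 V segments (20.1%). Male PPE 1 and male sham 4 led 40 each, against 25.3% and 13.9% of all genes.

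**Figure D4:**
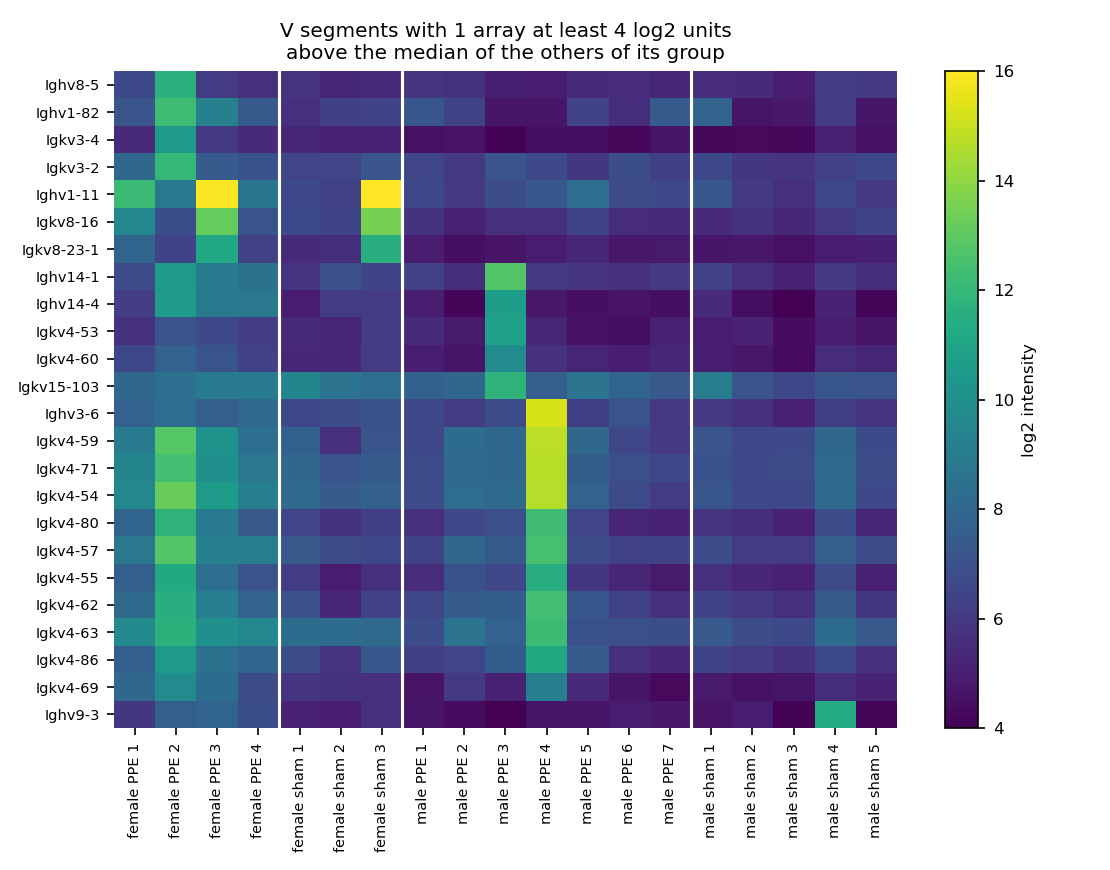
Log2 intensity of the 24 V segments with a value at least 4 log2 units above the median of the other arrays of its group, by aorta, with white lines between the 4 groups. Blocks of high signal stand in single aortae, such as the Igkv4 segments and Ighv3-6 in male PPE 4, and Ighv1-11 with Igkv8-16 is high in female PPE 3 and female sham 3.

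Ighv11-1 and Ighv11-2, named after their values were seen, are known in mice for antibodies of B-1 cells, innate-like B cells, against phosphatidylcholine. Ighv11-1 (chr12:113981879-113982174) had 13.11, 9.32, 11.97 and 14.29 in the female PPE aortae, against 9.51, 8.66 and 11.90 in the female sham aortae. It was above 8 in all 7 female aortae, highest in female PPE 4 and lowest in female sham 2. In males it was at 10.82 in male PPE 5, against 6.38 to 8.20 in the other male PPE aortae and 6.00 to 7.71 in the sham aortae. Ighv11-2 had nearly the same profile, with 12.41, 9.22, 11.72 and 13.80 in female PPE aortae, against 9.63, 8.34 and 11.46 in female sham aortae. The log2 differences in females, 2.15 ± 1.06 and 1.98 ± 0.98 (SE), were not called (adjusted p = 0.369 and 0.371).

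**Figure D5:**
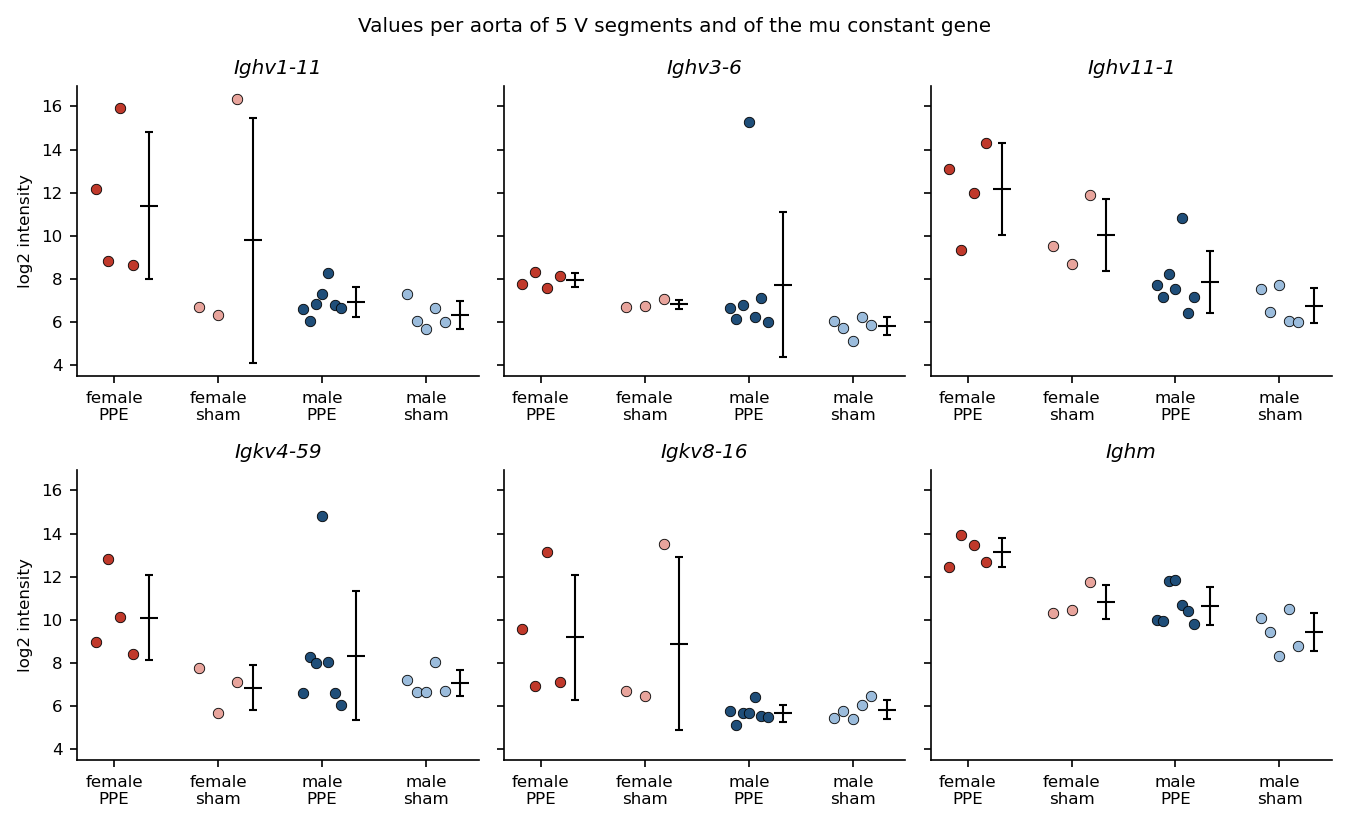
Log2 intensity of 5 V segments and of Ighm in each aorta, with bars for the mean and SD of each group. Ighv3-6 and Igkv4-59 are high in male PPE 4, Ighv1-11 and Igkv8-16 in female PPE 3 and female sham 3, and Ighm lies between 12.43 and 13.91 in female PPE aortae, above the 10.31 to 11.75 of female sham aortae.

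V segments are transcribed together with a constant gene. Of 13 constant and joining chain genes listed, 5 were read by a probe set of their own. Ighm, the mu constant gene of IgM, had 12.43, 13.91, 13.46 and 12.69 in the female PPE aortae, against 10.31, 10.43 and 11.75 in the female sham aortae. It was the gene of this list that rose in females (log2 difference 2.29 ± 0.59, SE, limma adjusted p = 0.0334), and it lost the call without female sham 1 (adjusted p = 0.158), sham 2 (0.156), PPE 2 (0.0992) or PPE 3 (0.0931), with quantile normalization (0.0532) and with the replicate number as a block (0.0926). In males its difference was 1.23 ± 0.45 (SE, adjusted p = 0.067). Jchain, which joins IgM and IgA into polymers, differed by 1.62 in females (adjusted p = 0.0547) and by 0.83 in males (adjusted p = 0.118). Ighg2b, of IgG2b, differed by 1.45 in females (adjusted p = 0.113). The means of Ighg1, of IgG1, and Ighe, of IgE, lay below the background level of 6.19, so their differences are not read here. No gene of this list was called in males, where 2 were higher at an unadjusted p below 0.05, and 1 was called without male sham 4 or male PPE 7.

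Counts of the marker lists that follow are to be read against all genes, of which 2.77% rose and 1.45% fell in females and 9.67% rose and 9.98% fell in males. Of 15 B cell markers listed, 14 were measured and 5 rose in females, namely Ms4a1, which encodes CD20 (log2 difference 2.05), Cd22 (1.38), Cd79b (1.14), Spib (0.88) and Fcrla (0.82). At an unadjusted p below 0.05, 12 were higher. Of the 5 calls, 1 was kept without female sham 1, 0 without female sham 2, 3 without female sham 3 and 1 each without female PPE 2 and female PPE 3. The list averaged between 7.93 and 8.94 in female PPE aortae, against 7.30 to 7.61 in female sham aortae. In males it averaged between 6.70 and 7.10 in PPE aortae, against 6.28 to 7.20 in sham aortae, with Fcrla and Cd72 higher and Ebf1 lower. The median log2 difference of the list was -0.08 in males, against 1.04 in females. Cd72 and Ebf1 were far brighter than Ms4a1, with means of 9.42, 11.88 and 6.46 in male sham aortae. Whether B cells were the source of the Cd72 and Ebf1 signals was not tested. Female PPE 3, with 8.94, was highest for this list, and female PPE 2, which led the V segments, came next with 8.65. The part of these markers in the V segment difference was not tested.

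Markers of other cells of the aorta moved with PPE too. Of 8 smooth muscle genes, 6 fell in females (median log2 difference -1.26) and 8 in males (-2.12). They averaged between 11.62 and 12.29 in female PPE aortae, against 13.02 to 13.32 in female sham aortae. The female count of 6 was 0 without female sham 2, 2 without female sham 3, female PPE 1 or female PPE 3, and 4 without female sham 1 or female PPE 2. Of 5 neutrophil genes, 4 rose in each cohort (median 2.81 in females and 2.49 in males). Of 6 macrophage genes, 1 rose in females (median 0.83) and 5 in males (1.78), and the female count was 0 without any 1 of female sham 1, sham 2, sham 3, PPE 1 and PPE 3. The part of these markers in the V segment differences was not tested.

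Of 14 plasma cell genes, Prdm1, which drives plasma cell maturation, and Pou2af1 rose in females, and Prdm1, Fcrl5 and Tnfrsf13b rose in males. The list had a median log2 difference of only 0.13 in females and 0.19 in males, against 1.04 for the B cell list in females. In females Irf4 (-0.34), Xbp1 (-0.24), Txndc5 (-0.17) and Eaf2 (-0.06) had negative differences and were not called. The female count of 2 was 0 without female sham 2 or sham 3, and 1 without female sham 1, female PPE 2, female PPE 3, male sham 2 or male PPE 1, 2, 5 or 7. Of 6 measured germinal centre genes, 1 rose in females, and in males 2 rose and 1 fell. The female count was 0 without any 1 of female sham 1, sham 2, sham 3, PPE 2 and PPE 3. Of 5 measured genes of V segment joining and pre-B cells, none rose or fell in females (1 was lower at an unadjusted p below 0.05) and 1 rose in males. T cell genes rose in both cohorts, 7 of 9 in females (4 without female sham 2) and 8 of 9 in males. Of 6 measured lymph node stroma and lymphatic genes, none was called in females (2 were higher at an unadjusted p below 0.05), while Cxcl13, a chemokine for B cells, rose and Prox1, of lymphatic endothelium, fell in males. Without male sham 1 the germinal centre list had 1 gene higher and 0 lower in males and the joining and lymph node lists had none called, and leaving out other single arrays changed these male counts as well. The lymph node list averaged 9.07, 9.81, 10.58 and 9.46 in female PPE aortae, against 8.96, 9.27 and 8.84 in female sham aortae. Glycam1, a ligand of lymph node vessels picked out after its values were seen, had 7.18, 8.25, 13.22 and 7.60 in female PPE aortae, against 6.51, 6.63 and 7.07 in female sham aortae, and Madcam1 was near background at 5.01 in both groups. The share of the V segment signal that moved with lymph node genes was not tested.

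For T cell receptor V segments the median log2 difference over the 114 measured was 0.23 in females, with 6 higher (5.26%, against 2.77% of all genes), and 0.22 in males, with 22 higher (19.3%, against 9.67% of all genes). The medians of the immunoglobulin V segments lay above this in females and below it in males. No T cell receptor V segment was lower in either cohort, with 1 lower at an unadjusted p below 0.05 in females. The 25 immunoglobulin probe sets with several symbols, which are not named here, had a median difference of 0.96 in females, ranging from -0.15 to 2.15, and 22 were positive. In males their median was 0.12, ranging from -0.53 to 1.55. The lambda probe set had 9.02, 9.72, 9.85 and 8.51 in female PPE aortae, against 7.01, 6.72 and 7.72 in female sham aortae, which did not overlap. In males it lay between 6.28 and 6.84 in PPE aortae, against 5.38 to 6.90 in sham aortae.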

How the data were processed

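The deposited values were log2 intensities of 19 Affymetrix Clariom D (MTA 1.0) arrays, made by the authors. The submitters' processing notes name the Transcriptome Analysis Console and mm10. The log base was taken from the values, while software version, summarisation and background correction were not given in the sources used here. Of 65956 probe sets, 30604 carried 1 symbol in the platform annotation, which gave 30142 genes after the brightest probe set was kept per gene. Coordinates and functional status came from RefSeq for GRCm38.p6. No pair of arrays shared more than 2.50% of its values exactly, and no array was left out.

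Means of the 4 groups were fitted over the 19 arrays by the lmFit and eBayes functions of limma (3.58.1, under R 4.3.3), without covariates, and p-values were adjusted by Benjamini-Hochberg over the 30142 genes, with calls below 0.05. The fit was tested on simulated data. Contrasts were PPE minus sham in each cohort and the difference of these. The V segments and the gene lists were chosen with earlier results of these data known. Named by rule were, per chain, the 4 brightest, the 3 with the largest spread, those called (at most 8 per direction and contrast, by size) and the 2 with the lowest p per cohort, further the constant and joining chain genes, and of other lists the first 2 genes and the 2 with the lowest p in males. Genes outside that rule, such as Ighv6-6, Igkv17-121, Ighv1-31, the V segments named for 1 high array beyond the 3 of largest spread, Pou2af1, Fcrl5 and the B cell markers other than Ms4a1, Cd72 and Ebf1, were named after their values were seen. Alternatives were median centring, quantile normalization, a filter on dim genes, mean of probe sets, trend and robust prior, array weights, the arrays of 1 cohort only, a replicate block, 3 male arrays left out, each array left out in turn, functional V segments only and means over V segments. A further one, adding 4 heavy chain probe sets under older synonyms, was chosen after the data were seen. The number of arrays limits the precision.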

Additional observations from a re-analysis of the deposited data

Results flagged for a closer look

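Among 105 groups of 4 to 7 aortae of 35 named genes, 13 held an aorta whose gap to the rest of its group was beyond Dixon's 95% limit, where chance gives about 1 in 20. That rate does not hold for genes named for a wide spread or a high mean, as many of these were. The values and their groups follow, with the range of the other aortae of that group.

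Male PPE 4 was high for 5 V segments, with Ighv3-6 at 15.28 (others 5.97 to 7.09), Igkv4-59 at 14.81 (6.05 to 8.24), Igkv4-71 at 14.72 (6.58 to 8.12), Igkv4-54 at 14.68 (6.10 to 8.30) and Igkv4-63 at 12.22 (6.82 to 8.59). Male PPE 3 was high for 3, with Ighv1-2 at 14.20 (11.52 to 12.63), Ighv14-1 at 12.81 (5.55 to 6.32) and Igkv15-103 at 11.82 (7.34 to 8.58). Male PPE 6 was low for Ighv1-64 at 4.99 (6.04 to 6.56). Male sham 4 was high for Ighv2-5 at 9.59 (8.87 to 9.06) and Igkv4-71 at 8.14 (6.67 to 7.02), and male sham 1 for Igkv15-103 at 9.06 (6.60 to 7.23). Female PPE 2 was high for the constant gene Ighg2b at 10.21 (7.36 to 7.73).

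Outside the 199 V segments, an immunoglobulin probe set with 2 symbols stood at 14.45 in male PPE 4, against 6.52 to 7.89 in the male sham aortae.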

How the results depend on the processing

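The 24 V segments called in females became 52 with array weights and 5 with female arrays alone, of which 2 were among the 24, and 0 to 42 with 1 array left out. The 2 called in males became 1 with the filter on dim genes, 4 with array weights and 1 to 4 with 1 array left out. The 0 called for the difference became 2 with array weights and 0 to 1 with 1 array left out. The share of all genes called was not counted for any alternative, including the replicate block. Whether these counts changed for V segments in particular can therefore not be told. The female median of kappa V segments, 0.67, was 1.20 both with the filter on dim genes and over V segments above background only, where dim ones are left out, and 0.56 to 0.96 with 1 array left out. The same repeats gave 0.57 to 1.09 for heavy chain V segments in females, and 0.05 to 0.20 for heavy chain and 0.02 to 0.22 for kappa V segments in males. V segments with a high array were 48 to 82 and those above background 93 to 102. No direction reversed in any alternative. Apart from those by construction, causes were not tested. Replicate numbers showed no clear pairing in expression. The correlation of deviations ran from -0.32 to 0.24, and the same number was the best match in 2 of 8 pairs. Whether mice of the same number shared any handling cannot be told from this. With the number as a replicate block, 16 V segments were called in females and 1 in males, and none for the difference. For named genes, 840 repeats of single differences kept their side of the threshold and 268 calls were lost. No alternative was run for the lambda probe set, since no lambda V segment qualified. The lack of detection calls limits what can be said of signals near background.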
